A study of Mus musculus with 8 samples.

Results

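Branched-chain amino acid catabolism was followed through 10 genes, Bcat2, Bckdha, Bckdhb, Bckdk, Dbt, Ivd, Mccc1, Mccc2, Hibadh and Auh. These were chosen by name as enzymes of this pathway, with earlier results of these data known. They were 10 of 18194 genes that the array annotation gives a probe set of their own, and every probe set with exactly one of these symbols was taken, which gave 21 of the array's 45101. The data are from quadriceps muscle of adult male C57Bl/10 mice, 1 Affymetrix mouse array per muscle, with 4 arrays in each of 2 groups. Hypoxia mice lived for 2 weeks in a sealed chamber whose oxygen was brought down over 1 week, starting at 21% and ending at 8%, and was then held at 8% for 7 days. Control mice were kept in room conditions for the same 2 weeks. The labels name no transgene, deletion or drug for either group. Only the hypoxia mice are described as living in a chamber, so chamber and low oxygen cannot be told apart. The comparison asked which transcripts of a locomotor muscle differed after sustained low oxygen. Nothing in the labels says that the muscles of a group came from separate animals, so p-values measure the spread between these samples.

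Leucine, isoleucine and valine are unusual among amino acids in that muscle, more than liver, starts their breakdown. The mitochondrial aminotransferase Bcat2 turns them into ketoacids, and the branched-chain ketoacid dehydrogenase complex, built from the decarboxylase subunits Bckdha and Bckdhb, the core acyltransferase Dbt and the shared subunit Dld, commits them to oxidation. The kinase Bckdk phosphorylates Bckdha and so switches the complex off, and the phosphatase Ppm1k switches it on again. Beyond the complex the 3 carbon skeletons part: Ivd, Mccc1, Mccc2 and Auh act on the leucine branch and Hibadh on the valine branch.

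Of the 21 probe sets, 19 passed a filter that removed the 40% dimmest probe sets, and the 2 left out were dim Auh probe sets with mean signals of 24.7 and 12.3 in hypoxia, against 32.9 and 10.7 in control. Each probe set was compared on log2(signal + 16), where the signal is the deposited MAS5 intensity, with limma, and p-values were adjusted by Benjamini and Hochberg over all 27022 tested probe sets with a threshold of 0.05. Changes are hypoxia minus control on that log2 scale with standard errors (SE), and 2-sided intervals are 95%. Adding 16 understates the fold of dim probe sets, and signals of different probe sets are not comparable as amounts of RNA. Less RNA per cell and fewer cells of a type cannot be told apart in whole muscle.

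The array hypoxia 1 stood apart. Gapdh control probes gave a 3′ to 5′ signal ratio, a measure of broken RNA, of 3.44 on this array, between 0.801 and 0.874 on hypoxia 2 to 4, and between 0.776 and 0.807 on the control arrays. For beta-actin this ratio was 2.53 on hypoxia 1, between 1.40 and 1.59 on hypoxia 2 to 4, and between 1.09 and 1.25 on the control arrays, and every hypoxia array exceeded every control array. Results are therefore also given without hypoxia 1. All 6 muscle fibre markers were far above the filter, with summed signals of 198733 to 279802 in hypoxia and 305790 to 367819 in control, and 5 of the 6 fell. Markers of other cells moved too: 3 of 3 tested adipocyte genes fell (summed signal 17487 to 26746 in hypoxia and 29196 to 60813 in control, with Lep below the filter), 6 of 6 fibroblast genes fell (14138.5 to 19119 in hypoxia and 47432 to 54511 in control), and 3 of 4 neutrophil genes rose (3093 to 5735 in hypoxia and 295 to 757 in control). Of the 6 macrophage and leukocyte genes 1 rose and 3 fell (6324 to 9564 in hypoxia and 5396 to 7048 in control). The 6 tested endothelial, 2 erythroid and 2 hepatocyte genes gave 0 calls by limma, and 3, 0 and 0 of them had an unadjusted p under 0.05. The part of these cells and of RNA quality in the results below was not tested.

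Of the 19 tested probe sets of the pathway, 5 fell and 2 rose. Over all tested probe sets 28.8% were called, 16.4% lower and 12.5% higher, so the pathway's probe sets as a whole were called about as often as any others. Their median change was -0.04, the same to 2 decimals as the -0.04 of all tested probe sets. The members thus did not move as a block: the falls were both probe sets of Bckdk, both of Mccc1 and 1 of 3 of Mccc2, and the rises were 1 of 2 of Hibadh and 1 of 4 tested ones of Auh. In 4 probe sets all hypoxia values lay below all control values and in 2 all lay above. Of all tested probe sets 30.1% separated in this way, 17% lower and 13.1% higher. With 1 probe set per gene, the brightest, 2 of the 10 genes fell (Bckdk and Mccc1) and 1 rose (Hibadh, adjusted p = 0.0494 by limma over 13257 genes), where 33.6% of all genes were called, 18.8% lower and 14.8% higher. Because 3 of the 19 probe sets had a group mean below the filter's signal of 90.2, they were tested only through their brighter group. Of the 16 others, 4 fell and 1 rose.

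**Figure D1:**
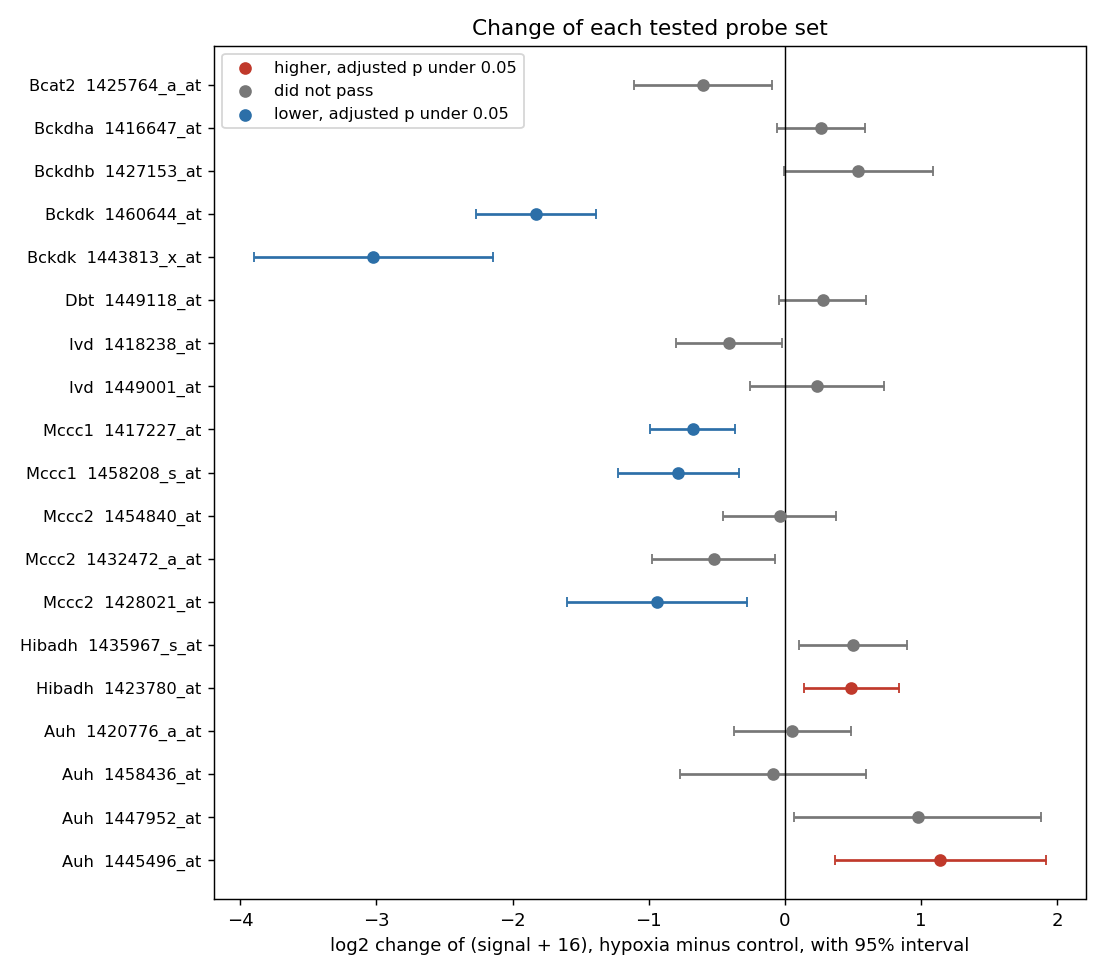
Change of each tested probe set of the 10 genes, as log2 of (signal + 16) in hypoxia minus control (x axis), with its 95% interval from limma, red where higher and blue where lower at an adjusted p under 0.05. Both Bckdk probe sets lie farthest to the left, at -1.83 and -3.02, while the probe sets of Bckdha, Bckdhb and Dbt lie between 0.27 and 0.54 and did not pass.

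Bckdk, the kinase that inactivates the ketoacid dehydrogenase complex, had the largest change among the members. On its brighter probe set (1460644_at) the signals were 401, 454, 701 and 683 in hypoxia 1 to 4, against 1728.5, 1811, 2068 and 2342 in control 1 to 4. Every hypoxia array was far below the lowest control array. The means were 559.9 ± 154 in hypoxia and 1987 ± 277 in control (SD, n = 4 each), a log2 change of -1.83 ± 0.20 (SE), or 3.55-fold lower, with an adjusted p of 3.74e-05 by limma. Only 604 of the 27022 tested probe sets, or 2.24%, changed by as much or more in this direction. Without hypoxia 1 the change was -1.69 (adjusted p = 4.74e-05 by limma). The second Bckdk probe set (1443813_x_at) gave 10.5, 75.2, 12 and 29.9 in hypoxia, against 322, 334, 334 and 311 in control. It fell by 3.02 on the log2 scale (SE 0.40, adjusted p = 0.000149 by limma), and its change was -2.80 without hypoxia 1. Its hypoxia signals are all below 90.2, so the size of that fall depends on the constant added, and probe sets of its kind can bind related transcripts.

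The promoter of Bckdk is shown with those of Mccc1, the only other gene that fell on every probe set, and of Hibadh, for which neither probe set was lower. The windows run from 250 bases before to 50 after the start site, 5′ to 3′ on the strand of the gene, from RefSeq on GRCm38.p6: chr7:127903823-127904122, plus strand, for Bckdk, chr3:36000629-36000928, minus strand, for Mccc1, and chr6:52640251-52640550, minus strand, for Hibadh. Capitals mark matches on either strand to ACGTG or GCGTG, the core of the element bound by hypoxia-inducible factors, or to AAGGTCA, the half-site of the estrogen-related receptors.
Bckdk: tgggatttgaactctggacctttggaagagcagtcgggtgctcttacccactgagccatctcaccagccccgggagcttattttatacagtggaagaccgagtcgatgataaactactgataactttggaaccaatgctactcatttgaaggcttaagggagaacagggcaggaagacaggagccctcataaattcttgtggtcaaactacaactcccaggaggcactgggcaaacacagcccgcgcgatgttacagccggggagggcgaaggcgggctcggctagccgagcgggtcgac
Mccc1: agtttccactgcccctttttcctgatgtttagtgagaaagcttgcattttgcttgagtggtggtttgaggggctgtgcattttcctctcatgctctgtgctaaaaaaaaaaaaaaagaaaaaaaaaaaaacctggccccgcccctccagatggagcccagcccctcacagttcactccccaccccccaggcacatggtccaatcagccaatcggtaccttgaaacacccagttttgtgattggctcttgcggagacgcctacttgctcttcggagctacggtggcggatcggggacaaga
Hibadh: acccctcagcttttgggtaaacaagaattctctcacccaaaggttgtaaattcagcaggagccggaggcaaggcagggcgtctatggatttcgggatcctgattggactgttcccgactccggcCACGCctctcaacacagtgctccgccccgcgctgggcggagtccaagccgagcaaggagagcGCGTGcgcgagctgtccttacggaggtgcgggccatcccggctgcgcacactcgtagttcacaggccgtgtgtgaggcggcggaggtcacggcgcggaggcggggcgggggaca
The Bckdk and Mccc1 windows held no match, and the Hibadh window held 2 matches to GCGTG, at -126 on the opposite strand and at -64 on the same strand. RefSeq windows were at hand for 9 of the 10 genes, 11 windows in all. Of these 7 held ACGTG or GCGTG, and 43.8% of 32851 promoter windows did. The 7 were both Bcat2 windows, 1 Bckdhb window and those of Hibadh, Bckdha, Auh and Mccc2. At the brightest probe set Bcat2 changed by -0.60 and Hibadh by 0.50, so matches were found beside changes in either direction. None of the 11 held AAGGTCA, against 4.72% of all windows. Matching letters are a description and do not show a bound site.

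**Figure D2:**
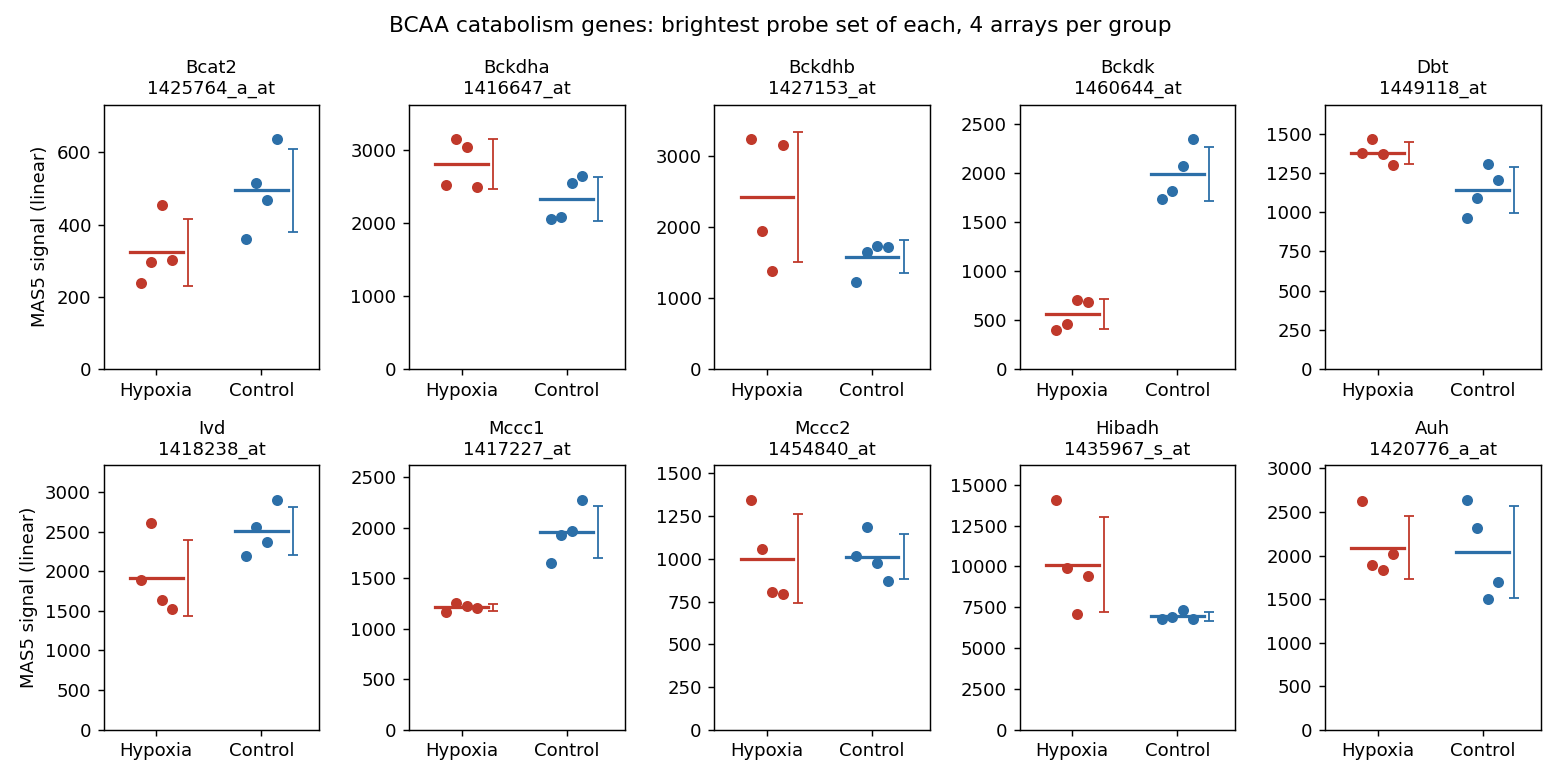
MAS5 signal (y axis, linear, from 0) of the brightest probe set of each of the 10 genes on the 4 hypoxia and 4 control arrays. Points are arrays, horizontal lines group means and the bars beside them 1 SD; Bckdk and Mccc1 are the only panels in which all hypoxia arrays lie below all control arrays.

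Bckdha, Bckdhb and Dbt, the subunits particular to the dehydrogenase that Bckdk acts on, were not called lower; the shared subunit Dld is given with the other enzymes. Bckdha, the decarboxylase subunit that carries the phosphorylated serines, had signals of 2525, 3152, 3051 and 2499.6 in hypoxia and 2058, 2087, 2548 and 2643 in control. The groups overlapped, and the change of 0.27 ± 0.15 (interval -0.06 to 0.59) did not pass (adjusted p = 0.214 by limma). Bckdhb, the other decarboxylase subunit, had 3240.4, 1939.9, 1383 and 3157 in hypoxia, against 1231, 1653, 1729.5 and 1726 in control. Hypoxia 1, 2 and 4 were above all controls and hypoxia 3 was below 3 of them, and the change of 0.54 ± 0.25 (interval -0.01 to 1.09) did not pass (adjusted p = 0.133 by limma). Without hypoxia 3 the change was 0.78 and passed (adjusted p = 0.0146 by limma). It did not pass in the other 7 of the 8 fits that leave out 1 array. Among these it was 0.37 without hypoxia 1, 0.39 without hypoxia 4 and 0.42 without control 1 (adjusted p = 0.283, 0.313 and 0.289 by limma). Dbt, the acyltransferase core, had 1376.5, 1467, 1375 and 1300.1 in hypoxia, against 967, 1090.2, 1306.5 and 1205 in control. Control 3 was inside the hypoxia range. Its change of 0.28 ± 0.15 (interval -0.04 to 0.60) did not pass either (adjusted p = 0.184 by limma). The 3 intervals exclude a fall of the size seen for Bckdk, and without hypoxia 1 the changes were 0.31, 0.37 and 0.28.

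Differences between 2 genes on the same array do not depend on how that array was scaled, and 6 such pairs were tested by an exact 2-sided permutation test over the 70 splits of the arrays, whose smallest possible p is 0.0286. Bckdk minus Bckdha was -2.61, -2.75, -2.10 and -1.85 in hypoxia 1 to 4, against -0.25, -0.20, -0.30 and -0.17 in control, on the log2 scale. The control arrays held this difference within a narrow band and the hypoxia arrays lay far below it: the means were -2.33 ± 0.43 in hypoxia and -0.23 ± 0.06 in control (SD, n = 4 each; exact permutation p = 0.0286, adjusted over the 6 pairs p = 0.0343). The change was -2.37 for Bckdk minus Bckdhb and -2.11 for Bckdk minus Dbt (both exact permutation adjusted p = 0.0343), and in each all 4 hypoxia arrays were below all 4 control arrays. Without hypoxia 1 these 3 changes lay between -2.06 and -1.96, where 3 arrays against 4 cannot reach 0.05. All 3 use the same Bckdk values, which alone separated the groups. The 3 tests therefore restate the fall of Bckdk and are not separate support for it. Bckdhb minus Bckdha, the pair of decarboxylase subunits, averaged -0.28 ± 0.75 in hypoxia and -0.56 ± 0.17 in control and did not pass (exact permutation adjusted p = 0.40, n = 4 each).

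**Figure D3:**
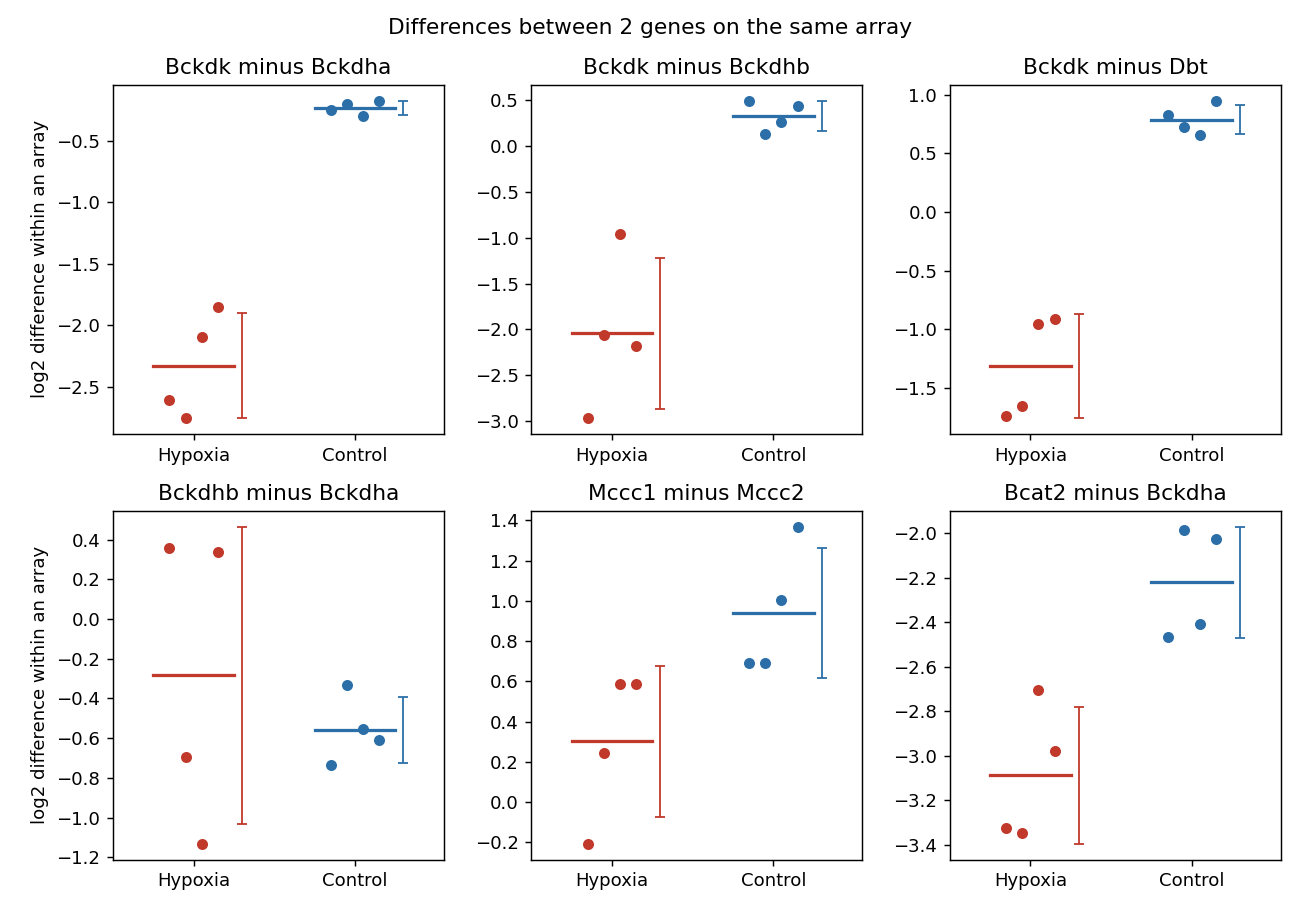
Log2 difference between 2 genes on the same array (y axis; scales differ between panels) for the 6 tested pairs, with 4 hypoxia arrays left and 4 control arrays right in each panel, group means as lines and 1 SD as bars. The 3 panels with Bckdk show hypoxia means of -2.33, -2.04 and -1.32 and control means of -0.23, 0.33 and 0.79, with no overlap, while Bckdhb minus Bckdha overlaps.

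Bcat2, which makes the ketoacids, was read by 1 probe set. Its signals were 238, 296, 455 and 303 in hypoxia, against 359.5, 515, 467 and 637 in control, so that 3 of the 4 hypoxia arrays were below every control array and hypoxia 3 was not. The change of -0.60 ± 0.23 (interval -1.11 to -0.10) did not pass (adjusted p = 0.0723 by limma). It was -0.77 without hypoxia 3 and -0.74 without control 1, and passed in both (adjusted p = 0.0220 and 0.0424 by limma). In the other 6 of the 8 fits that leave out 1 array it did not pass. Among these it was -0.47 without hypoxia 1 and -0.47 without control 4 (adjusted p = 0.151 and 0.197 by limma). Relative to Bckdha on the same array Bcat2 was lower in hypoxia, with a mean of -3.09 ± 0.31 in hypoxia and -2.22 ± 0.25 in control, a change of -0.87 (SD, n = 4 each; exact permutation adjusted p = 0.0343). That difference includes the change of 0.27 in Bckdha, which did not pass, so it does not show that Bcat2 itself fell.

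On the leucine branch Mccc1 and Mccc2 encode the subunits of methylcrotonyl-CoA carboxylase. Mccc1, the subunit that carries biotin, had signals of 1163, 1253, 1222 and 1203 in hypoxia, against 1654, 1924, 1971 and 2275 in control, on its brighter probe set (1417227_at). Every hypoxia array was below every control array, and the 4 hypoxia values lay close together. The means were 1210.2 ± 37.5 in hypoxia and 1956 ± 254 in control, a fall of 1.60-fold (log2 change -0.68 ± 0.14, adjusted p = 0.00359 by limma). A dimmer probe set (1458208_s_at) had 165, 137, 199.9 and 202 in hypoxia, against 316, 293, 343 and 292 in control, and fell by 0.78 (adjusted p = 0.0123 by limma). Both calls held without hypoxia 1 (-0.66 and -0.76).

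Mccc2, the partner subunit that transfers the carboxyl group, gave 3 different answers from 3 probe sets. The brightest (1454840_at) had 1345, 1056, 809 and 796.5 in hypoxia, against 1018, 1185, 976 and 871 in control, a change of -0.04 ± 0.19 (interval -0.46 to 0.38) that did not pass. The next (1432472_a_at) had 524.5, 675, 603 and 379 in hypoxia and 780.3, 993, 645 and 717 in control, and its change of -0.52 did not pass (adjusted p = 0.0786 by limma). The dimmest (1428021_at), with 117, 269.6, 268 and 133.5 in hypoxia and 250.5, 454, 340.0 and 475 in control, fell by 0.94 (adjusted p = 0.0347 by limma), with groups that overlapped. That call ended without any 1 of hypoxia 1, hypoxia 4, control 2, control 3 and control 4 (changes of -0.98 to -0.74, adjusted p = 0.0586 to 0.101 by limma), so a fall of Mccc2 is uncertain. Mccc1 minus Mccc2 at the brightest probe sets averaged 0.30 ± 0.38 in hypoxia and 0.94 ± 0.32 in control, a change of -0.64 (SD, n = 4 each; exact permutation adjusted p = 0.0343). With the mean of each gene's probe sets the change was -0.23 and did not pass (exact permutation adjusted p = 0.40), so the unequal change depends on which Mccc2 probe set is read.

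Ivd, the isovaleryl-CoA dehydrogenase that precedes the carboxylase, had a pair of bright probe sets that leaned in opposite directions. The first (1418238_at) had 1888, 2605, 1637 and 1528 in hypoxia, against 2196, 2563, 2371 and 2902 in control, and changed by -0.41 ± 0.18 (adjusted p = 0.111 by limma). The second (1449001_at) had 2496, 2444, 1503 and 1269.6 in hypoxia, against 1264, 1482.5, 1743 and 1833 in control, and changed by 0.24 ± 0.23 (adjusted p = 0.479 by limma). Neither passed and the groups overlapped on both. Of the 8 fits that leave out 1 array the first passed only without hypoxia 2 (-0.57, adjusted p = 0.0270 by limma). Without hypoxia 1 the changes were -0.41 and 0.09 (adjusted p = 0.129 and 0.793 by limma). No direction can be given for Ivd.

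Auh, the methylglutaconyl-CoA hydratase of the leucine branch, which is also known to bind AU-rich RNA, had the most probe sets. Its bright one (1420776_a_at) had 2621, 1886, 1834 and 2020.1 in hypoxia, against 2639, 2318, 1506 and 1701.5 in control, a change of 0.06 ± 0.20 (interval -0.37 to 0.48). A dim one (1445496_at) had 95.3, 134.5, 231 and 204 in hypoxia, against 72, 62.7, 78.1 and 43 in control, and rose by 1.14 ± 0.36 (adjusted p = 0.0299 by limma). Its control signals are all below 90.2, and the call ended without any 1 of hypoxia 2, hypoxia 4, control 2 and control 4 (changes of 1.003 to 1.21, adjusted p = 0.0516 to 0.0894 by limma). Without hypoxia 3 it dropped below the filter and was not tested, so the call stood in 3 of the 8 fits that leave out 1 array. The other tested dim ones changed by 0.97 and -0.09 and did not pass, but the first of these passed without control 3 (1.27, adjusted p = 0.0451 by limma). Without hypoxia 1 the dim probe set changed by 1.36 (adjusted p = 0.0148 by limma) and the bright one by -0.06.

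Hibadh, the hydroxyisobutyrate dehydrogenase of valine breakdown, was the only member called higher at its brightest probe set in the fit over genes. On the brighter (1435967_s_at) the signals were 14067.5, 9868.5, 7077 and 9426 in hypoxia, against 6764, 6898, 7298 and 6770.0 in control. Hypoxia 1, 2 and 4 were above every control array and hypoxia 3 was inside the control range, and the change of 0.50 ± 0.18 just missed the threshold (adjusted p = 0.0568 by limma). The other (1423780_at) had 8715, 7542, 5229 and 6544 in hypoxia, against 5206, 4934, 4889 and 4621 in control, with no overlap, and rose by 0.49 ± 0.16, or 1.40-fold (adjusted p = 0.0377 by limma). Both were highest in hypoxia 1, and without it the changes were 0.33 and 0.37 and neither passed (adjusted p = 0.0977 and 0.0690 by limma). The call of the second held in only 1 of the 8 fits that leave out 1 array, the one without hypoxia 3 (0.62, adjusted p = 0.00642 by limma), where the first passed too (0.66, adjusted p = 0.00835 by limma); in the other 7 its adjusted p was 0.0586 to 0.102 by limma.

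Hypoxia arrays varied more than control arrays in most member probe sets, and in most of all tested probe sets. The SD on the log2 scale was larger in hypoxia for 14 of the 19 probe sets, and for 59.5% of all tested probe sets. Without hypoxia 1 it was again 14 of the 19, and 49.4% of all. Whether the members differed from all probe sets in this was not tested, and several of the 19 share a gene. Hypoxia 1 was the highest of the hypoxia arrays for 8 and the lowest for 6 of the 19, where it was the highest for 24% and the lowest for 37% of all tested probe sets.

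Other enzymes of the pathway, a list of 20 genes, were lower more often than higher. Of 18 tested at their brightest probe set 10 fell and 1 rose, with a median change of -0.59. In the same fit 17.8% of all 13257 genes fell and 14% rose, with a median of -0.04. This list and those below were chosen with earlier results of these data known, so such comparisons only describe the lists. Oxct1, which uses the succinyl-CoA pool to activate ketone bodies, had 5976, 3376, 2974 and 4696 in hypoxia, against 19410, 17211, 18791 and 18300.3 in control, and fell 4.48-fold (log2 change -2.16 ± 0.20, adjusted p = 7.99e-06 by limma). Its 3 other tested probe sets fell as well, with changes of -2.69, -1.87 and -1.54. Some enzymes that act on valine and isoleucine carbon also fell. Pcca and Pccb, the subunits of propionyl-CoA carboxylase, had log2 changes of -1.21 ± 0.15 and -0.94 ± 0.16. Mcee, the methylmalonyl-CoA epimerase, had -1.24 ± 0.19. The other Pcca probe set, a dim one, did not pass at 0.27. Acad8, the isobutyryl-CoA dehydrogenase of valine breakdown, fell 2.17-fold, with a dimmer probe set at -0.23 that did not pass. Other enzymes of these branches did not fall. Echs1, Acadsb and Aldh6a1, named after their values were seen, changed by 0.48, 0.34 and 0.17 and did not pass. The 1 rise was Hsd17b10, a dehydrogenase of isoleucine breakdown, with 5070.1, 6083.5, 4739 and 8615 in hypoxia, against 2404, 3166, 2764 and 3131 in control (log2 change 1.06 ± 0.19, adjusted p = 0.00117 by limma). Dld, the subunit the complex shares with other ketoacid dehydrogenases, changed by -0.32 ± 0.12 and did not pass (adjusted p = 0.0709 by limma), although all 4 hypoxia arrays were below all 4 control arrays. After quantile normalization its change was -0.44 and passed (adjusted p = 0.0136 by limma), so whether Dld fell depends on the scaling. Without hypoxia 1 the list had 10 lower and 2 higher.

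Of 14 supply and control genes 5 rose and 2 fell (median 0.25), where 14% of all genes rose and 17.8% fell in the same fit. The count that fell was 1 without any 1 of the 4 control arrays, after median centring and with eBayes without the trend. Klf15, a transcription factor known in mice to activate Bcat2 and other amino acid genes of muscle, had 6005, 3367.5, 2933 and 4175.5 in hypoxia, against 1075, 1019, 1680.1 and 1155 in control. All 4 hypoxia arrays were above all controls, a rise of 3.26-fold (log2 change 1.70 ± 0.23, adjusted p = 0.00015 by limma). The amino acid transporter genes Slc3a2 and Slc43a2 rose by 1.14 ± 0.15 and 1.01 ± 0.18. Slc7a5, the partner of Slc3a2 in the large neutral amino acid transporter, rose by 2.01 ± 0.62, with groups that overlapped and control signals of 22.6 to 154.5. Glul, the glutamine synthetase, rose by 1.31 ± 0.24. Bdh1, a ketone body dehydrogenase, fell, at -1.66 ± 0.27. The other fall was Gpt2, an alanine aminotransferase named here after its value was seen, at -0.67 ± 0.21, with changes of -1.52 (called), -0.59 and -0.21 (not called) on its other probe sets. Its call ended after median centring (-0.59, adjusted p = 0.0757 by limma). Ppm1k, the phosphatase that opposes Bckdk, had 1118, 934, 913.5 and 747 in hypoxia, against 994, 1264.5, 1082 and 1009.5 in control, and its change of -0.23 ± 0.17 (interval -0.59 to 0.13) did not pass. A dim Ppm1k probe set fell by 1.76 (adjusted p = 0.0147 by limma), so its change is uncertain.

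**Figure D4:**
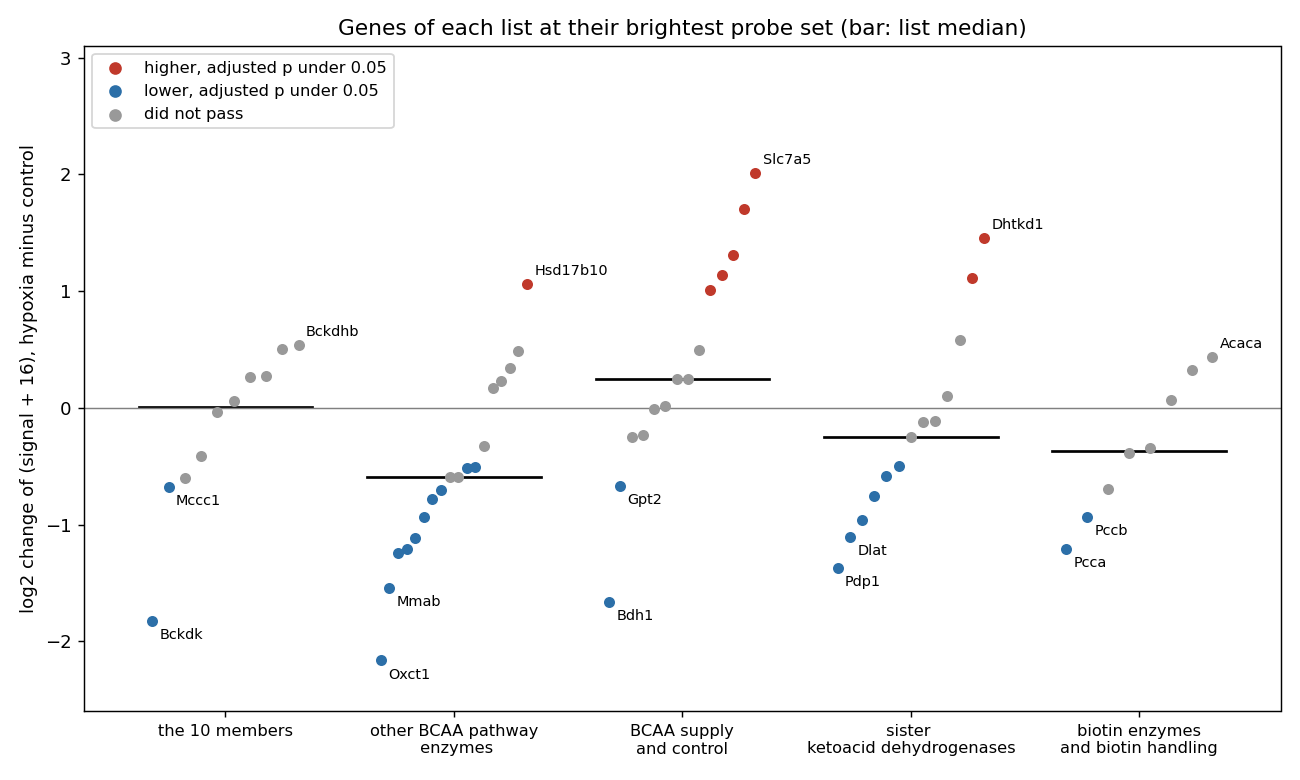
Log2 change of (signal + 16), hypoxia minus control (y axis), of each tested gene at its brightest probe set, for the 10 members and the 4 further lists, coloured by its call in the fit over all probe sets, with the list median as a black bar. The medians are 0.01, -0.59, 0.25, -0.25 and -0.37, and Bckdk is the lowest of the 10 members.

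Among the related ketoacid dehydrogenases and their regulators, 6 of 13 fell and 2 rose (median -0.25), against the same 17.8% and 14% of all genes. The Pdha1, Dlat and Pdhx subunits of the pyruvate dehydrogenase complex fell, while the answer for Pdhb depended on the probe set. Pdha1, the counterpart of Bckdha, changed by -0.96 ± 0.14 and Dlat, the counterpart of Dbt, by -1.10 ± 0.16, and both passed. Pdhx, named after its value was seen, changed by -0.59 ± 0.13 and passed (adjusted p = 0.0048 by limma). Pdhb, the counterpart of Bckdhb, named after its value was seen, changed by -0.11 ± 0.12 on its brightest probe set. The groups overlapped there, and it did not pass (adjusted p = 0.536 by limma). A dimmer Pdhb probe set fell, at -1.25 (adjusted p = 0.000175 by limma), so a fall of Pdhb is uncertain. Dlst, the core of the oxoglutarate complex, fell, at -0.75 ± 0.16, while its other probe sets changed by 0.04 and 0.31 and did not pass. The activating phosphatase Pdp1 fell by 1.37 (adjusted p = 0.000149 by limma). Of the 4 pyruvate dehydrogenase kinases, relatives of Bckdk, Pdk1 rose by 1.11 ± 0.17 on its brightest probe set, and a second probe set rose by 0.48, while the third fell by 0.78; all 3 passed, so its direction is uncertain. Pdk4, Pdk2 and Pdk3, named after their values were seen, changed by 0.58, -0.12 and -0.25 and did not pass. Dhtkd1, a dehydrogenase of lysine breakdown, rose by 1.46 ± 0.31. Among genes of biotin enzymes and biotin handling, which share the cofactor of Mccc1, 2 of 8 fell (Pcca and Pccb, given above) and 0 rose by limma, with 3 lower and 0 higher at an unadjusted p under 0.05, against 17.8% lower and 14% higher over all genes. The count that fell was 4 without hypoxia 3 and 3 with array weights. Whether these genes differed from the 10 members was not tested. Without hypoxia 1 the related dehydrogenases had 5 lower and 2 higher, supply and control had 2 lower and 5 higher, and biotin genes had 2 lower and 0 higher by limma.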

How the data were processed

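Total RNA of 8 quadriceps muscles was measured on Affymetrix mouse arrays, per the labels' protocols. The authors deposited MAS5 output, a linear intensity for every probe set of every array, per the submitters' processing notes. Sources used here give neither its version nor detection calls. The authors' scaling was kept, and the trimmed mean was 500.0 on every array. Array number and not read depth limits precision. Groups and replicate numbers came from sample titles, and the 8 columns all belonged to these samples.

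Of 45101 probe sets, 64 controls were left out, and of the others the 40% dimmest by mean log2(signal + 16), leaving 27022. Gene symbols came from the platform annotation (34958 probe sets with 1 symbol, 932 with several, which name no gene here, and 9211 without), updated through gene identifiers of GRCm38.p6 for 99.4% of them. Hypoxia and control were compared with limma 3.58.1 in R 4.3.3 (lmFit, eBayes with trend, no block). Named are all members, up to 6 called genes per list with the smallest p, and Ppm1k, Klf15 and Dld. Echs1, Acadsb, Aldh6a1, Gpt2, Pdhb, Pdhx, Pdk2, Pdk3 and Pdk4 fall outside this rule and were named after their values were seen. Members and lists were chosen with earlier results of these data known. In simulated data of 27022 probe sets, 50 were changed at each of 4 sizes. Of changes of 0.5, 1, 2 and 4 on the log2 scale 10%, 42%, 84% and 90% were recovered. In the data themselves 28.8% of probe sets were called, so these shares do not give the power of the comparison. Alternatives are given in the closing section.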

Additional observations from a re-analysis of the deposited data

Results flagged for a closer look

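In 5 of 78 groups of 4 arrays examined, 1 array lay far from the other 3 by Dixon's criterion on the log2 scale, where chance gives about 1 in 20. Among the members this was the low Bckdhb signal of control 1, 1231 against 1653 to 1729.5 in the other control arrays. Among the other genes, Bdh1 was low in control 2 (1581, against 2583 to 2742), Glul was high in control 3 (12896, against 5329 to 5653), and control 3 was low for Pdp1 (2440.5, against 3503 to 3659) and for Dhtkd1 (60, against 121 to 128).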

How the results depend on the processing

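The calls of Bckdk and Mccc1 on both probe sets held under every alternative in which they were tested, and their leave-one-out changes ran from -1.95 to -1.69 and -3.40 to -2.80 for Bckdk, and from -0.75 to -0.60 and -0.85 to -0.68 for Mccc1. The dimmer Bckdk probe set fell below the filter in 4 of the 8 fits that leave out 1 array, those without a control array. The 60% filter left it out as well. It was tested only where its control signals kept it above the filter, so those settings do not check its call. Rises were less stable: the count of member probe sets that rose, 2 in the analysis above, was 1 after quantile normalization and with eBayes without the trend, 0 with no filter and 0 with the replicate number as a block, and 0 to 3 when 1 array was left out. The count that fell was 3 to 6 when 1 array was left out. The count of member genes that rose, 1 above, was 0 after median centring, with a pseudocount of 1 and with no filter. It was also 0 without the trend and with the replicate block. When 1 array was left out, it was 2 without hypoxia 3 and 0 without any 1 of the others. With the replicate block 5 member probe sets fell, as without it. The shared numbers do not pair the samples: deviations of same-numbered arrays correlated at -0.07 to 0.01, and no array correlated best with its own number. Mccc1 minus Mccc2 changed by -0.23 with the mean of probe sets and did not pass. Leaving out 1 array, the differences ran from -2.25 to -1.95 for Bckdk minus Bckdha, -2.73 to -2.06 for Bckdk minus Bckdhb, -2.24 to -1.96 for Bckdk minus Dbt, 0.06 to 0.56 for Bckdhb minus Bckdha, -0.73 to -0.47 for Mccc1 minus Mccc2 and -0.995 to -0.78 for Bcat2 minus Bckdha, where an adjusted p of 0.0686 was the lowest by the exact permutation test, since 3 arrays against 4 cannot reach 0.05 after adjustment. Signs turned only for values near 0 that did not pass: the brightest Mccc2 probe set was 0.0197 after quantile normalization, 0.0425 after median centring, and -0.190 to 0.0578 when 1 array was left out. The bright Auh probe set then ran from -0.0773 to 0.190 and a dim one from -0.199 to 0.169. The median change of all tested probe sets was 0.04 after quantile normalization and after median centring, against -0.04 above, and the split of all calls was 3368 higher and 4422 lower above and 3809 higher and 3776 lower after median centring. Fewer arrays give less power, and for the other alternatives the causes were not tested.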
